A study of Arabidopsis thaliana with 3 samples.

Results

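Cold-acclimated Arabidopsis plants were frozen and then allowed to recover, and 166 probe sets stood apart by their timing: their signal was close to the control after 3 h of recovery and at least 3-fold higher after 24 h. They measure 165 protein-coding genes, since AT2G37480 is measured by a pair of them. The genes were chosen by their measured signals on all 3 arrays, with every signal below a floor of 16.1 set to that floor, so that a ratio could not grow from noise near background. A probe set was taken when its annotation named 1 gene, its 24 h signal was at least 3-fold that of the cold-acclimated array and its 3 h signal lay within 2-fold of it in either direction. Of the 13513 probe sets that named 1 gene, 179 met both conditions, which is 1.32%. A further condition left out 13 of these by name, among them the autophagy genes ATG8E and ATG8F, the kinase subunit AKINBETA1 and the xyloglucan gene XTH33, and the other 166 are described here. The array holds 22810 probe sets in all, 22746 of them for Arabidopsis. The members' values were used in that choice and are given as a description, with no test.

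The plants were Arabidopsis thaliana accession Col-0, and RNA was taken from all the above-ground tissue. They were stratified for 2 days at 4 °C and grown at 20 °C in 9 h of light and 15 h of dark to growth stage 1.14, and all 3 groups then spent 11 days at 4 °C in the same light cycle. The cold-acclimated plants were harvested at hour 5 of the light period. The plants of both recovery groups were frozen for 20 h once their light period was over, the temperature being printed as 6.0 °C with no minus sign, and were then kept in the dark at 20 °C for 3 h or 24 h. If freezing was also in the dark, which is not stated, their last light had ended 23 h and 44 h before harvest. Freezing, the warmer air and the missing light therefore differ together between the control and both recovery groups and cannot be told apart. If both recovery groups were frozen at the same hour, their harvests at 3 h and 24 h also fell at different times of day. Time of day and hours without light then cannot be told apart from recovery time. Each group has 1 array, every title carries the replicate number 3, and the sources used here do not state how many plants were pooled. With 1 array a group there is no spread between plants to set a difference against, so no p-value is given, and "higher" below means higher on these arrays.

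A frozen leaf that thaws has to repair membranes, resume growth at the warmer temperature and, when no light follows, live on stored carbon. Leaves held in the dark are known to break down sugars, proteins and lipids for energy, to recycle amino acid carbon and to switch on genes that are also active in senescence.

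Leaf genes were bright on every array. RCA, which encodes Rubisco activase, had signals of 3216, 2990.4 and 4068 on the cold-acclimated, 3 h and 24 h arrays, and the light-harvesting gene LHCB4.2 had 1965, 1330.4 and 4153. The root hair expansins EXPA7 and EXPA18 had 20.5, 22.5 and 8.38 and 22.3, 15.1 and 5.28, so both were below the floor at 24 h. Most of the other tissue markers are not named on the annotation, and flower, phloem and xylem markers could not be checked. The median signal of all Arabidopsis probe sets was 42.6, 39.5 and 42.8. The bacterial hybridization controls, which are added to each sample in set amounts, were 1.696-fold brighter at 3 h and 1.42-fold brighter at 24 h than on the control array. Scaling the arrays to these controls moved the median log2 ratio of all measured probe sets at 24 h to -0.43, and scaling to reference genes moved it to -0.22, so the ratios below are relative to the bulk of the genes. In whole shoots, more cells of a type and more RNA per cell cannot be told apart.

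The 166 members had a median signal of 42.0 in cold-acclimated plants, 42.7 at 3 h and 201.5 at 24 h. In cold-acclimated plants they were thus about as bright as the median Arabidopsis probe set. The floor and the 3-fold line together require a 24 h signal of at least 3 times the floor, so none of them can be dim at 24 h. The median log2 ratio of 24 h to control was 1.96, or 3.90-fold, with quartiles of 1.73 and 2.37 and a range of 1.59 to 4.07. At 3 h the median was 0.00 with quartiles of -0.26 and 0.33. Most members sat low in the range: 87 were 3- to 4-fold higher at 24 h, 65 were 4- to 8-fold higher, 11 were 8- to 16-fold higher and 3 were more than that. On the control array 36 members were below the floor, and for these a fold is a lower bound, while 124 were above the floor on all 3 arrays.

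**Figure D1:**
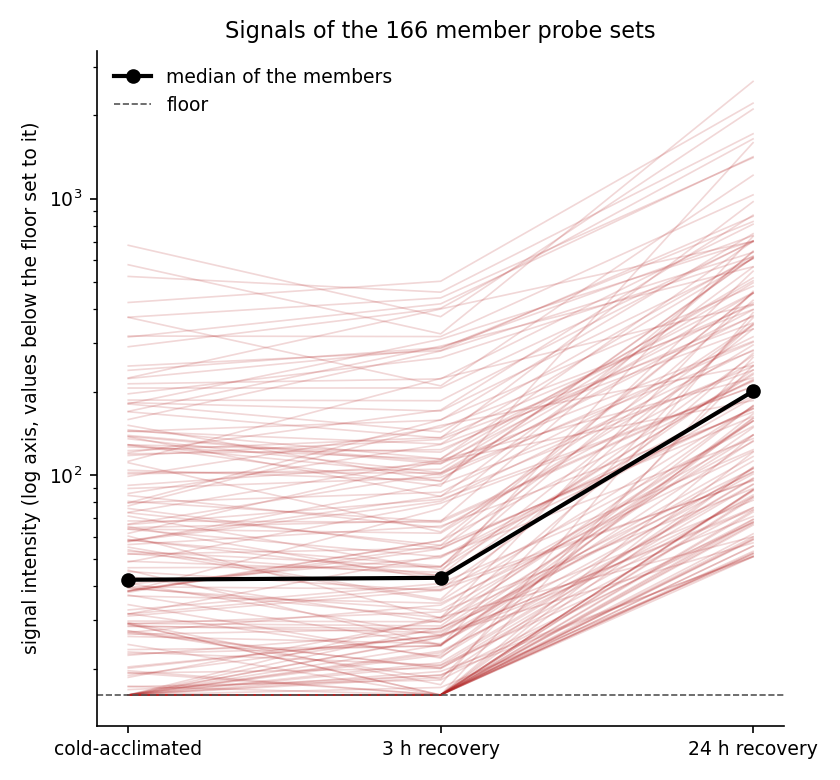
Signal intensity of each of the 166 member probe sets (thin lines) on the cold-acclimated, 3 h and 24 h arrays, on a log axis with signals below 16.1 drawn at that floor (dashed). The black line is the members' median signal, 42.0, 42.7 and 201.5; the lines are nearly level up to 3 h and all climb to 24 h.

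The error that the arrays themselves give is the disagreement between different probe sets of 1 gene. It was taken over 77 genes for each ratio, each with exactly 2 probe sets, both above the floor on the arrays compared. It amounted to an SD of 0.33 log2 units for a 3 h ratio and 0.40 for a 24 h ratio of 1 probe set. This covers disagreement between probe sets, and not error shared by a whole array or the spread between plants. Members below the floor on an array are not represented by it. Against that error, 84 members lay within 1 SD of the 3-fold line at 24 h and 28 lay within 1 SD of a 2-fold line at 3 h, and 67 did neither. Just inside the 3-fold line were AT3G62950 at 3.01-fold, PRX52 at 3.01-fold and AT5G03050 at 3.01-fold, and just outside it were AT1G26665 at 2.997-fold, AT1G09390 at 2.99-fold and AT2G21430 at 2.98-fold. At the 2-fold line of the 3 h array, AT2G30930, AT2G46490 and AT5G19120 were just inside at 1.996-, 1.993- and 1.988-fold, and CCL, AT3G50590 and AT1G74780 were outside at 0.466-, 2.17- and 2.18-fold. The 2 probe sets of AT2G37480 gave log2 ratios of 2.08 and 1.73 at 24 h, both inside. AT1G22330, a member at no less than 3.45-fold, has another probe set with signals of 2.34, 0.700 and 21.6 and a log2 ratio of 0.42. Both probe sets were below the floor on the control array, so both ratios are lower bounds. AT1G59930 is the 1 member that is read by a probe set marked as able to bind transcripts of other genes.

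**Figure D2:**
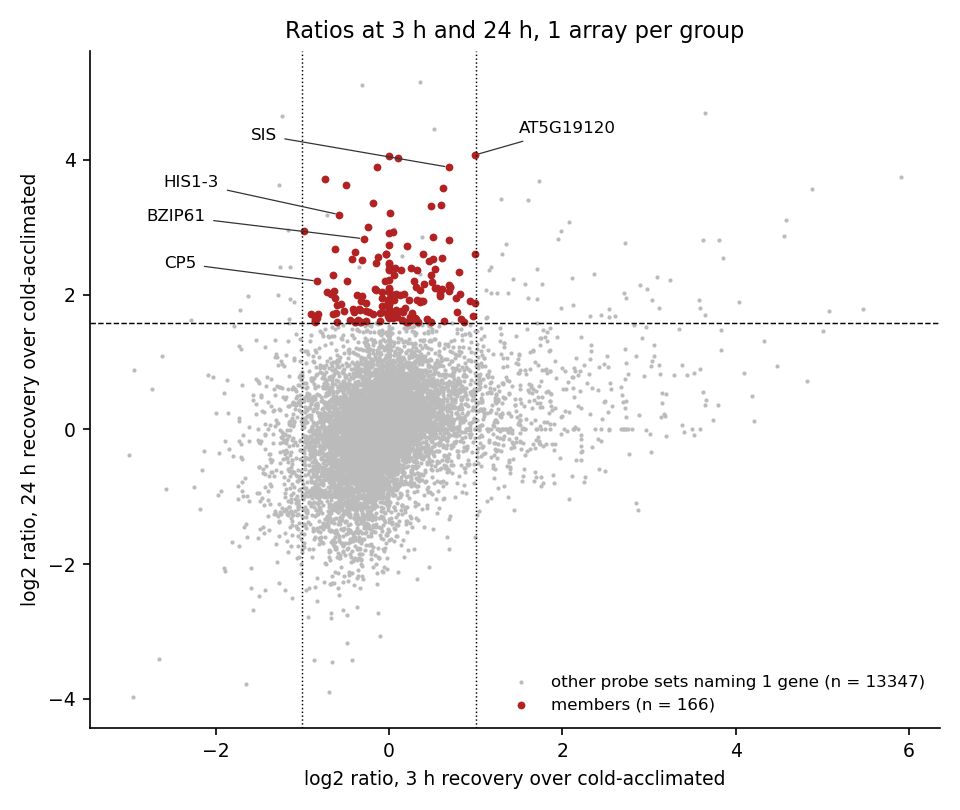
Log2 ratio to the cold-acclimated array at 3 h (x axis) and at 24 h (y axis) for 13513 probe sets naming 1 gene, members in red and the others in grey, with the 3-fold line dashed and the 2-fold lines dotted. Members fill the block above 1.58 between -0.98 and 1.00, and grey points inside that block are the 13 genes left out by name.

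As background to the number of members, 178 probe sets (1.32%) were at least 3-fold lower at 24 h and within 2-fold at 3 h. This balance rests in part on the scaling, under which the median log2 ratio of all measured probe sets was 0.00 at 24 h and -0.12 at 3 h. Another 188 (1.39%) were at least 3-fold higher at 3 h and back within 2-fold at 24 h, and 41 (0.303%) were at least 3-fold higher at both times. Of the 246 probe sets that were at least 3-fold higher at 24 h, which is 1.82% of all and 2.52% of the 9754 measured ones, 179 were within 2-fold of the control at 3 h, where 12614 of all 13513 probe sets (93.3%) lay.

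Only 26 members carry a gene name in the annotation used, and these are described by role. Regulators make up 9 of them, with a median log2 ratio of 1.90 at 24 h and a range of 1.60 to 3.19. HIS1-3, a linker histone known to be induced by drought and abscisic acid, had signals of 27.4, 18.4 and 249 in cold-acclimated plants, at 3 h and at 24 h. It was below the control at 3 h and 9.11-fold above it at 24 h (log2 ratio 3.19). The only other linker histone named on the array, HON4, had 214, 195 and 246, nearly level on all 3 arrays.

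BZIP61, a transcription factor of the basic leucine zipper class, had signals of 19.7, 2.1 and 140.0, so it was below the floor at 3 h and 7.11-fold above the control at 24 h (2.83). Of 17 measured bZIP genes, a family followed because it holds this member, it alone was at least 3-fold higher at 24 h. Over all measured probe sets the share was 2.52%. The other 16 bZIP genes were within 2-fold. The factors of the unfolded protein response took another course: BZIP28 had 107, 441 and 162 and BZIP60 had 454, 1228 and 378, highest at 3 h in both cases. BZIP53, a factor of the low-energy response, had 341, 459 and 429, within 2-fold throughout.

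MYBC1 encodes a MYB-type factor whose loss is known to raise freezing tolerance. Its signals were 3.97, 12.2 and 88.6, below the floor on the first 2 arrays and at least 5.50-fold higher at 24 h. AtS40-3, a regulator of leaf senescence, had 2.77, 12.4 and 66.2, at least 4.11-fold higher. UPB1, a basic helix-loop-helix repressor of peroxidase genes studied in roots, had 12.3, 8.01 and 55.5, at least 3.45-fold higher. All of these were below the floor until 24 h, and so was SINA2, with 9.19, 3.20 and 59.97 and at least 3.72-fold.

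bHLH121, which acts with other basic helix-loop-helix factors in iron homeostasis, had 52.2, 43.5 and 191 (1.87). It was slightly lower at 3 h than in the control and 3.65-fold higher at 24 h. Its partners were nearer to the control at 24 h, with log2 ratios of 0.48 for bHLH104, 0.46 for ILR3, -0.09 for bHLH115 and -0.89 for bHLH34. RTE1, which promotes signalling by the ethylene receptor ETR1, had 27.0, 20.2 and 92.7 (1.78). IQD19, from a family of calmodulin-binding proteins, had 17.3, 9.85 and 52.6 (1.60), and none of the other 9 measured IQ-domain genes was beyond 2-fold at 24 h. Over all measured probe sets 7.31% were at least 2-fold higher at 24 h.

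Enzymes and transporters form a group of 6, with a median log2 ratio of 1.76 and a range of 1.59 to 2.29. SFP1, a sugar transporter that is induced in senescing leaves, had signals of 101, 105 and 497. The control and 3 h arrays were level and the 24 h array was 4.90-fold above the control (2.29). SFP2, which lies next to it in the genome, had 36.0, 15.3 and 54.6, lower at 3 h and 0.60 log2 units above the control at 24 h. SFP1 was chosen for its 24 h ratio and SFP2 was not, so the gap between them is a description.

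DELTA-OAT, the ornithine aminotransferase of arginine breakdown, had 76.0, 54.5 and 348 (2.2). It was somewhat lower at 3 h and 4.58-fold higher at 24 h. NPF6.2, a nitrate transporter of the leaf stalk, had 181, 144 and 621 (1.78), with the same dip at 3 h. Of 11 measured genes of its transporter family, 1 was at least 3-fold higher at 24 h, against 2.52% of all measured probe sets. Another 1 was at least 3-fold lower and 8 were within 2-fold.

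ARD4, an acireductone dioxygenase of the methionine salvage cycle, had 118, 135 and 356 (1.59). OASA2, named as an isoform of the enzyme that makes cysteine, had 27.5, 20.0 and 85.0 (1.63). CYP71B24, a cytochrome P450, had 44.96, 38.3 and 151 (1.74), and CYP71B23 had 146, 121 and 356 (1.28), also highest at 24 h. None of the other 11 measured CYP71B genes was 2-fold higher at 24 h, against 7.31% of all measured probe sets.

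Cell wall and glycoside-cleaving proteins form another group of 6, with a median log2 ratio of 1.71 and a range of 1.59 to 2.72. PYK10, the beta-glucosidase of endoplasmic reticulum bodies in seedlings and roots, had signals of 15.8, 18.6 and 106. It was just below the floor on the control array and at least 6.58-fold higher at 24 h. BGLU16 had 103, 102 and 378 (1.88), level until 3 h. BGLU45, which acts on the glucosides of lignin precursors, had 13.1, 17.1 and 51.0, at least 3.17-fold higher.

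Beta-glucosidases are the only named family with more than 1 member, with 3 of 15 measured genes at least 3-fold higher at 24 h, against 2.52% of all measured probe sets. The family is described because it holds members, so nothing is read from its count. None was 3-fold lower, and the family median was 0.10. BGLU40 had 69.6, 120.2 and 188 (1.44) and BGLU46 had 5.49, 10.4 and 35.0 (1.12), the next highest of those within 2-fold at 3 h, whereas BGLU25 had 446, 1600.2 and 995 and was highest at 3 h. BGLU42, BGLU44 and BGLU33 were lower at 24 h than in the control, with log2 ratios of -0.61, -0.60 and -0.62.

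EXGT-A3, which cuts and rejoins the xyloglucan of the cell wall, had 239.8, 289.8 and 736 (1.62). XTH33, left out by name, had 15.8, 20.5 and 80.0, and XTH19 had 20.8, 164 and 88.2, already high at 3 h. Of 7 measured xyloglucan genes, a family also followed because it holds a member, 3 were at least 3-fold higher at 24 h, against the same 2.52% of all measured probe sets, and the other 4 were within 2-fold, with a median of 0.87. TBL37, of the family that adds acetyl groups to wall polysaccharides, had 89.7, 98.4 and 303 (1.76), and TBL26 of the same family ran the other way with 226, 125 and 44.7 (-2.34). PRX52, a secreted peroxidase linked to lignin, had 19.0, 26.6 and 57.1 (1.59), and it was the member of lowest ratio but one.

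Among the other named members, SIS, a serine-rich protein induced by salt, had the highest ratio. Its signals were 18.6, 30.1 and 277, which is 14.8-fold above the control at 24 h (3.89) and 1.61-fold at 3 h. LCR67, a plant defensin, had 0.387, 10.8 and 88.9, at least 5.52-fold higher at 24 h. The defensin PDF1.4, left out by name, had 28.5, 23.1 and 989, while PDF1.2 had 719, 3934 and 803 and was high only at 3 h, and PDF2.1 had 74.8, 93.5 and 12.7 and was lowest at 24 h.

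WLIM2b, a LIM protein that bundles actin filaments, had 319, 318 and 1033 (1.69). The first 2 arrays were level, with a log2 ratio of -0.01 at 3 h. WLIM2a had 114, 102 and 165 (0.53) and WLIM1 had 336, 253 and 437 (0.38), both within 2-fold. JAL34, a jacalin-related lectin, had 29.1, 32.1 and 89.8 (1.63), and its neighbour JAL33 had 21.0, 21.3 and 41.9 (1.00). CP5, for which no role is given here, was the brightest member at 24 h, with 577, 325 and 2654 (2.2).

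**Figure D3:**
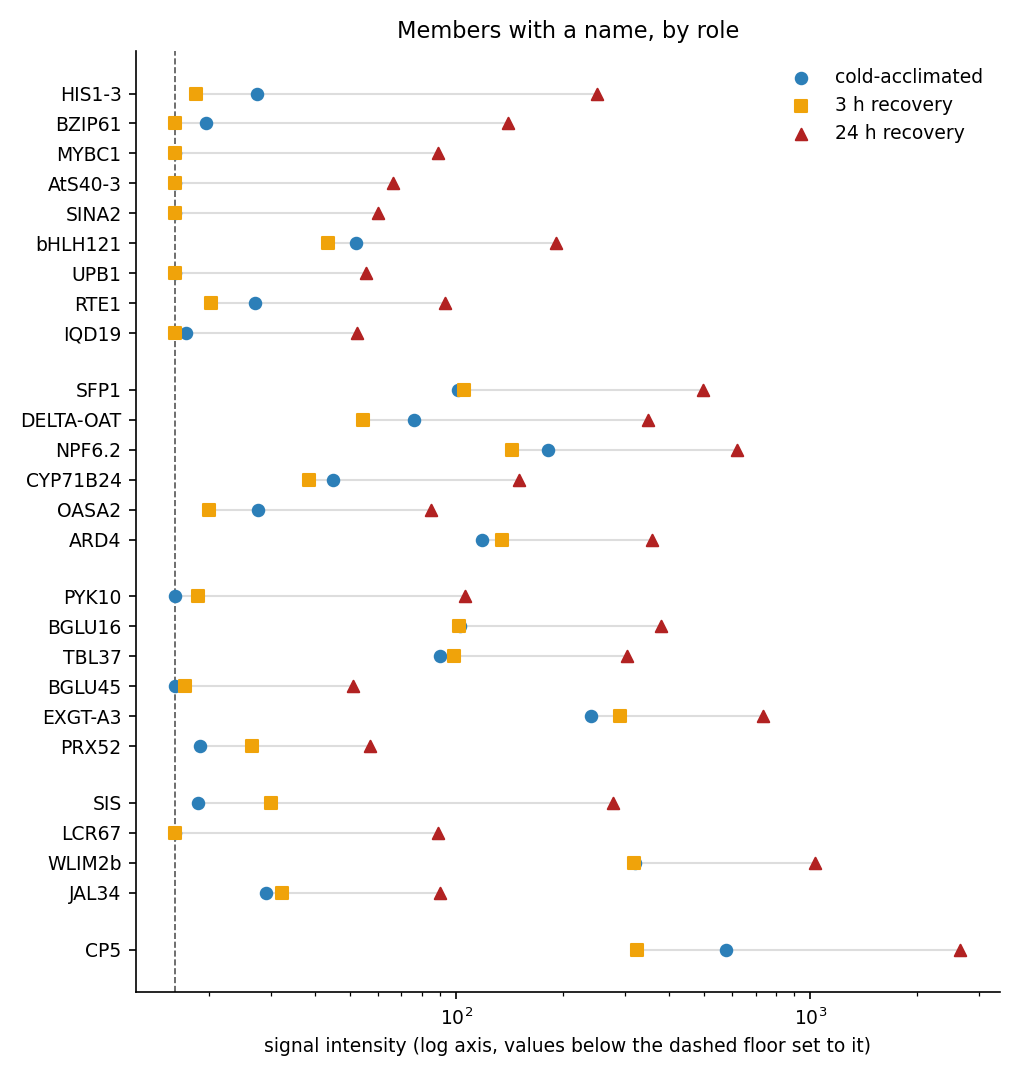
Signal intensity (log axis) of the 26 named members on the cold-acclimated (circle), 3 h (square) and 24 h (triangle) arrays, with signals below 16.1 drawn at the dashed floor. Blocks from top to bottom are 9 regulators, 6 enzymes and transporters, 6 wall and glycoside proteins, 4 stress, defence and cytoskeleton proteins, and CP5; in every row the triangle lies to the right of both other marks, which lie within 2-fold of each other, and a hidden circle lies under its square.

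**Figure D4:**
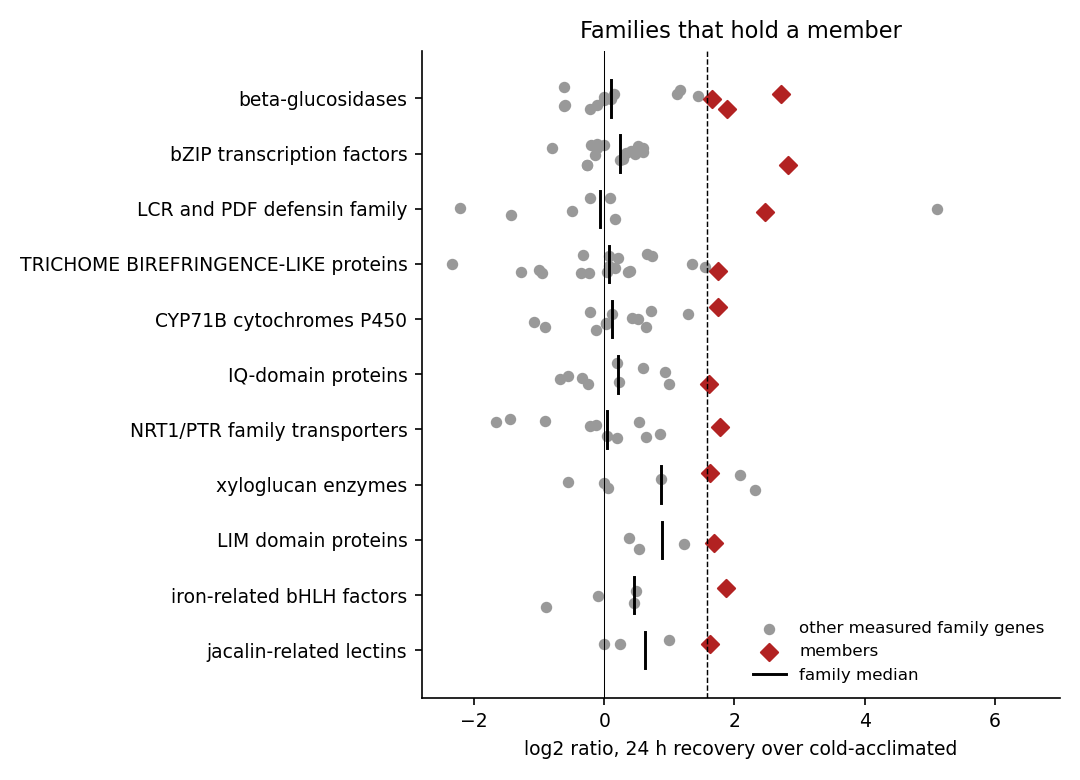
Log2 ratio of 24 h recovery to the cold-acclimated array for the measured genes of 11 families that hold a member, with members as red diamonds, other genes as grey points, the family median as a black bar and the 3-fold line dashed. Family medians run from -0.07 for defensins to 0.88 for LIM proteins. Members lie right of the dashed line because the rule put them there.

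The 13 families were followed because each holds a member. The linker histones and the SFP transporters have 2 measured genes each, and in both the second gene was within 2-fold.

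The remaining 140 probe sets name 139 genes by locus code alone, so no role is given for them. Their median log2 ratio at 24 h was 1.99, near the 1.83 of the 26 named members. They include the highest ratio among the members, that of AT5G19120, with 38.2, 75.9 and 643 (4.07): it was 1.99-fold above the control at 3 h and 16.8-fold above it at 24 h. AT1G25230 had 22.7, 24.3 and 371 (4.03) and AT5G40450 had 49.0, 44.7 and 731 (3.90). Both of these were level until 3 h.

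AT1G62510 had 29.4, 17.5 and 388 (3.72), and its 24 h signal was 22.1-fold that at 3 h, the widest step between the recovery arrays. AT2G37130 had 129, 91.5 and 1594 (3.63) and combined a high ratio with a bright signal at 24 h. AT1G22890 had 37.8, 58.1 and 455 (3.59). These differ in the direction of their small move at 3 h, which was down in the first pair and up in the third.

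AT5G57655, AT1G01240 and AT1G72060 had log2 ratios of 3.36, 3.21 and 3.00 at 24 h with 3 h ratios of -0.19, 0.01 and -0.24. AT3G14280 (2.93), AT1G62480 (2.85), AT4G14930 (2.68), AT2G04690 (2.64), AT3G05900 (2.61) and AT4G25260 (2.60) completed the 20 highest ratios together with AT4G33666 and AT2G30930, which are described with the 3 h values.

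Among the 36 members below the floor on the control array, AT5G50335 was the brightest at 24 h, with 4.52, 14.1 and 267, and at least 16.6-fold higher. AT1G54740 had 14.6, 24.4 and 161, at least 10.02-fold higher. AT1G30700 had 15.9, 22.5 and 161, at least 9.98-fold higher. AT4G15690, AT1G68440 and AT1G09500 followed with at least 7.54-, 7.01- and 6.66-fold, and AT2G37750 and AT1G34630 with at least 6.08- and 5.78-fold. In 22 of the 36 the 3 h signal was below the floor too, as in AT4G39675 with 0.460, 0.879 and 82.8. For these both signals were set to the floor, so the 3 h ratio shows no change, and whether they differed at 3 h is not measurable here. Where only 1 of the control and 3 h signals was below the floor, the 3 h ratio is a bound. Some such members met the 3 h condition only through the floor. Examples are AT5G12420, with 10.7 on the control array and 30.8 at 3 h, and BZIP61, with 19.7 and 2.1.

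At the other end of the scale, 39 members had signals of 100 or more on all 3 arrays, where the floor has no part. Their log2 ratios at 24 h ran from 1.59 to 2.85 with a median of 1.83, and 11 of them were at least 4-fold higher. AT3G15450 had 422, 503 and 2214 (2.39), AT2G15960 had 292, 402 and 1645 (2.50) and AT2G46220 had 524, 459.6 and 1717 (1.71). These, with CP5 and WLIM2b, are among the brightest transcripts of the set, and each was within 1.5-fold of the control at 3 h except CP5, which was lower. AT1G51400 and AT1G56220, described below and brighter than WLIM2b at 24 h, were also lower at 3 h. The choice of these genes, and of the genes named next, was made after their values were seen.

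Within the 2-fold window the 3 h signals were not uniform. Of the 166 members 77 were above the control at 3 h, 67 were below it and the 22 at the floor on both arrays were equal. In 24 members the 3 h signal was more than 1.5-fold above the control, and their ratios at 24 h had a median of 2.07. Those below the floor on the control array, such as AT5G12420, have a bound at 3 h and not a measured ratio. AT2G30930 had 79.6, 159 and 483 (2.60), AT3G61260 had 182, 311 and 704 (1.95) and AT5G65660 had 159, 282 and 640.4 (2.01). In these the signal at 3 h was part of the way to that at 24 h.

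In 19 members the 3 h signal was more than 1.5-fold below the control, with a median of 1.85 at 24 h. For those below the floor at 3 h, such as AT5G44380, the 3 h ratio is likewise a bound. AT4G33666 had 60.4, 30.6 and 463, lowest at 3 h and 15.1-fold above that at 24 h. AT1G51400 had 679, 375 and 2108 (1.63) and AT1G56220 had 373, 211 and 1216 (1.71). CP5 shares this dip, and SIS is the only named member of the 24 that were raised early. CCL, just outside the window, had 849.6, 396 and 3157, the same dip with a larger size.

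Set against 3 h and not the control, 131 members were at least 3-fold higher at 24 h and 159 were at least 2-fold higher, with a median log2 ratio of 1.98. Over all probe sets naming 1 gene, 339 (2.51%) were at least 3-fold higher at 24 h than at 3 h. The 7 members under 2-fold were AT2G27830, AT2G24040, AT2G36320, AT2G46490, AT1G27290, AT5G12420 and AT4G17245. All 7 were more than 1.5-fold above the control at 3 h, so for these "only at 24 h" rests on the position of the lines. AT2G27830, the nearest, had 77.7, 152 and 249.8, 1.65-fold apart at 24 h and 3 h.

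Lists of marker and pathway genes, among them genes of dark and low-energy responses, were also followed. Few of their genes are named on the annotation: 36 of 320 places, with none in 14 of the 30 lists. Whether the members belong to such a response was not tested. SFP1 is the only listed gene that is also a member. For amino acid breakdown 6 enzymes and electron carriers were measured, with a median log2 ratio of 0.94 at 24 h and -0.25 at 3 h. Of these 3 were at least 2-fold higher at 24 h, as were 7.31% of all measured probe sets, and none reached 3-fold. MGL, which breaks down methionine, had 45.9, 23.7 and 102 (1.16), D2HGDH, which oxidizes hydroxyglutarate, had 44.6, 40.6 and 98.0 (1.14), and MCCB, a subunit of the leucine-breakdown carboxylase, had 110.2, 60.1 and 234 (1.09). All 3 were lowest at 3 h and highest at 24 h, below the 3-fold line. IVD and MCCA of the same pathway passed that line, but they were left out by name and are not among the 6.

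The peroxisomal enzyme AIM1, of fatty acid breakdown and the only measured gene of its list, had 274, 240.3 and 600.3 (1.13). Other pathway lists of 1 or 2 measured genes went both ways at 24 h. ATG3 of autophagy had a log2 ratio of 0.54 and EXO, already high at 3 h, had 2.81. Starch breakdown had a median of -0.45, the clock gene GI had -1.25 and the low-energy bZIP factors had a median of 0.03. Among senescence genes SAG101 had 59.0, 167 and 63.7, highest at 3 h, and WRKY53 was below the control at 24 h (-0.73). The median of 3 was -0.06 at 24 h. Auxin-responsive genes had a median of 0.80 over 3, led by WES1 with 49.5, 31.5 and 142 (1.51). The gibberellin receptors had a median of 0.64 over 3: GID1C had 32.9, 18.9 and 76.0 (1.21), GID1B had 43.4, 144 and 67.7 and was highest at 3 h, and GID1A had 195, 116 and 190.2 and was lowest there. Cysteine proteases and inhibitors had a median of -0.24 over 3. The median over all measured probe sets was 0.00, and no list of at least 3 measured genes had a gene past 3-fold in either direction at 24 h. That rests in part on how the lists were written. They do not hold IVD, MCCA or the members DELTA-OAT and AtS40-3, all at least 3-fold higher at 24 h.

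Members were spread over the genome. By locus code 44 of the 165 genes are on chromosome 1 (26.7%), 29 on chromosome 2 (17.6%), 36 on chromosome 3 (21.8%), 20 on chromosome 4 (12.1%) and 36 on chromosome 5 (21.8%). The same shares over all 13333 genes were 25.7%, 16.3%, 20.5%, 14.5% and 22.4%. In 4 cases both genes of an adjacent pair were members. AT3G05900 and AT3G05910 had log2 ratios of 2.61 and 1.90 at 24 h, AT4G15690 and AT4G15700 had 2.92 and 2.19, the first of them a bound, AT1G33050 and AT1G33055 had 1.66 and 2.34, the second a bound, and AT1G27290 and AT1G27300 had 1.74 and 2.09. Of the 5845 adjacent pairs on the annotation these are 0.0684%. Among 121 measured genes that lie next to a member and are not members, 2 were at least 3-fold higher at 24 h, and 14 (11.6%) were at least 2-fold higher against 7.31% of all measured probe sets. Their median log2 ratio was 0.10.

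How many genes belong to the set depends on the settings. With a 2-fold line at 24 h there were 542 and with a 4-fold line 79. With the arrays scaled to a common median there were 161, of which 160 were among the 166. Scaling to the hybridization controls left 61, of which 51 were among the 166. Under it 105 members fell under 3-fold at 24 h and 34 lay outside 2-fold at 3 h. It shifted each member's log2 ratio at 24 h by -0.51, and the rule required at least 1.58. All 166 therefore had to stay at least 2-fold higher at 24 h, and nothing is read from that. Of the 166, 49 met both conditions under all 5 other scalings, and 96 did under the 4 that do not use the hybridization controls.

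**Figure D5:**
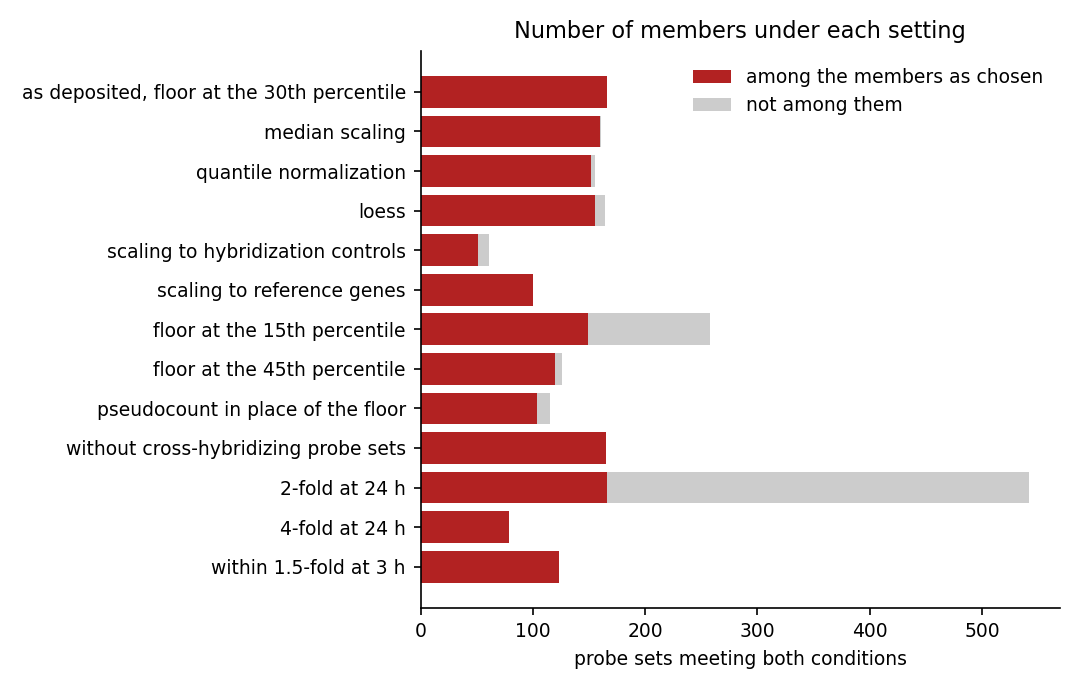
Number of probe sets naming 1 gene that meet both conditions (x axis) under each setting, genes left out by name not counted, with those among the 166 members in red and others in grey. The bars run from 61 with scaling to hybridization controls to 542 with a 2-fold line at 24 h, against 166 with the settings used.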

How the data were processed

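Signals of 3 Affymetrix ATH1 arrays, 1 per group, were used as deposited. They are linear intensity values per probe set, which the authors made with MAS5 per the submitters' processing notes. MAS5 settings and the chip's scan details are not given in the sources used here, and detection calls were not used. A 2% trimmed mean was near 100 on each array (100.008 to 100.01), so no rescaling was applied. Signals below 16.1, the 30th percentile of Arabidopsis signals, were set to 16.1 before log2 ratios were taken. The number of arrays limits the precision.

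Probe sets were named by GEO's platform annotation, with symbols brought up to date from RefSeq (TAIR10.1): 13513 Arabidopsis probe sets named 1 gene, 503 several and 8730 none. No coordinates or sequences are printed. A list or family gene counted as measured when at least 1 array was above the floor, and its brightest probe set stood for it.

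The members, lists, families and rules were chosen with earlier results of these data known. Genes named are the 20 highest 24 h ratios above the floor on the control and the 10 brightest members below it, as bounds. To these come all members with a name, the genes nearest each line, named family genes, list genes, adjacent pairs and genes with more than 1 probe set. Other genes were chosen after their values were seen and are marked so.

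Counts past a fold stand in for tests, since no p-value can be had from 1 array a group. The selection function was tested on simulated data, with large changes put only into probe sets well above the floor. Errors near the fold lines or the floor were not covered. Alternatives were scalings to the median, quantiles, loess, reference genes and hybridization controls, a floor of 4.3 (15th percentile) or 33.3 (45th), a pseudocount of 16.1, leaving out cross-hybridizing probe sets, and other fold lines. The scripts used pandas 2.3.3, numpy 2.4.6, statsmodels 0.14.6, scipy 1.17.1 and matplotlib 3.10.9 under Python 3.11.15.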

Additional observations from a re-analysis of the deposited data

Results flagged for a closer look

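The probe set for 25S ribosomal RNA, a control outside the gene measurements, was 5.42-fold brighter on the 24 h array than on the cold-acclimated array, with signals of 1292 at 24 h and 238 in the control. The 5S ribosomal RNA probe set went the other way, with 7.98 at 24 h and 75.6 in the control (0.106-fold). The other control probe sets for Arabidopsis transcripts ran from 0.628-fold for a GAPDH probe set to 2.15-fold for a ubiquitin probe set. Among the probe sets without a gene name in the annotation used, 192 met the same conditions as the members, at least 3-fold higher at 24 h and within 2-fold at 3 h, and 26 of these were at least 8-fold higher at 24 h.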

How the results depend on the processing

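No paired analysis was possible because each group has 1 array and all 3 carry the same number. For the same reason no array could be left out. Against 166 members, scaling to the hybridization controls left 61 and scaling to reference genes 100, and there were 258 with the floor at the 15th percentile, 542 with a 2-fold and 79 with a 4-fold line at 24 h. The other alternatives gave 115 to 165. With the members held fixed, scaling to the hybridization controls gave a median log2 ratio of 1.46 at 24 h and -0.50 at 3 h. The same scaling gave list medians at 24 h of 0.43 for amino acid breakdown, -0.56 for senescence, 0.29 for auxin, 0.13 for gibberellin and -0.74 for cysteine proteases. The members' median at 24 h and the list medians at 24 h kept their sign under every alternative run for them. For the members' median this follows from how they were chosen. The members' median at 3 h, 0.00 as reported, took either sign, between -0.50 and 0.10. Over 57 named genes and 8 scaling, floor and pseudocount alternatives, all 456 ratios at 24 h were above 0, 450 were at least 2-fold and 392 at least 3-fold. The lowest was 0.61, for BGLU45 with the floor at the 45th percentile. All 57 are members, chosen for a 3-fold rise on these same arrays. That choice all but fixed that their ratios would stay above 0, so nothing is read from it. For genes near the floor the ratio is set by the floor. The comparison of promoter motifs was not run, as no promoter sequences were used here.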

Other observations

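The 192 unnamed probe sets with the members' timing are 2.2% of the 8730 unnamed ones, against 1.32% of the probe sets naming 1 gene. Their median log2 ratio at 24 h was 2.06, against 1.96 for the members, and the highest was 6.08, against 4.07. The 13 genes left out by name include the highest ratios with this timing among named genes. AT4G27450 had signals of 32.8, 42.0 and 1174 on the cold-acclimated, 3 h and 24 h arrays (5.16), PDF1.4 had 28.5, 23.1 and 989 (5.12) and AT2G05540 had 37.0, 53.0 and 813 (4.46).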
